A study of Mus musculus with 25 samples.

Results

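Loss of SAMHD1 was examined in peritoneal macrophages that already lacked the RNA sensor RIG-I, by comparing 4 SAMHD1 RIG-I DKO libraries with 4 RIG-I KO libraries. These 8 of the 25 libraries in the series were picked by the genotype at the head of each column, and all 13266 genes of the deposited table were included, of which 13252 passed a filter on low values and were tested. SAMHD1 RIG-I DKO macrophages lacked both Samhd1 and Ddx58, the gene of RIG-I, and RIG-I KO macrophages lacked Ddx58 with Samhd1 intact, so the absence of RIG-I is shared by both groups. All mice were untreated and sampled at day 0 of the labels. The alleles, the age and sex of the mice and whether each library came from a separate animal are not given in the sources used here, so a p-value here sets a difference against the variation among these libraries, which may be technical. The series also holds 4 SAMHD1 KO against 5 WT libraries and 4 SAMHD1 MDA5 DKO against 4 MDA5 KO libraries, used here to set the same loss beside its size in other backgrounds.

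SAMHD1 is a deoxynucleoside triphosphohydrolase that lowers the cellular pool of DNA building blocks, and its loss is known to raise type I interferon signalling in mice and in humans. Cytosolic DNA is sensed by cGAS, which signals through STING, and cytosolic RNA is sensed by RIG-I and MDA5, which signal through MAVS. Both routes end in interferon, which acts through its receptor on a complex that holds STAT2 and IRF9 and so on interferon-stimulated genes. Among these genes are antiviral effectors, the sensors themselves and IRF7, a transcription factor that amplifies interferon production.

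The 8 libraries held 27479337 to 39338756 reads in the listed genes, 49 to 82 of the 13266 genes were at 0 in a library, and the 10 most abundant genes took 17.2 to 18.7% of the reads. Library numbers follow the columns and serve as names. In a principal component analysis of the 8 libraries the first component, with 23.8% of the variance, separated the groups in part. SAMHD1 RIG-I DKO libraries lay at -22.2, -11.3, 4.87 and -24.3 and RIG-I KO libraries at -7.90, 8.34, 22.2 and 30.3 on it, so that SAMHD1 RIG-I DKO library 3 and RIG-I KO library 1 lay toward the other group. The labelled cell type held in its markers. Of 17 markers of large peritoneal macrophages, all were tested and none differed beyond the threshold, and their mean log2 level was 14.81 to 14.94 in SAMHD1 RIG-I DKO libraries and 14.77 to 14.89 in RIG-I KO libraries. Gata6, the transcription factor that defines these cells, averaged 4529 normalized counts in SAMHD1 RIG-I DKO and 4267 in RIG-I KO macrophages, and Adgre1, which encodes F4/80, averaged 90704 in SAMHD1 RIG-I DKO and 83536 in RIG-I KO macrophages. In bulk RNA, fewer cells of a type and less RNA per cell cannot be told apart.

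The targeted genes were read first, in normalized counts, that is, reads divided by a library's size factor. Samhd1 (ENSMUSG00000027639, GRCm38 chromosome 2, 157097533 to 157135265) had 1606, 1534, 1852 and 1541 normalized counts in SAMHD1 RIG-I DKO libraries 1 to 4, against 10204, 9521, 11109 and 8856 in RIG-I KO libraries 1 to 4. The groups lay far apart, and a part of the transcript signal remained in every SAMHD1 RIG-I DKO library. Its log2 fold change was -2.60 ± 0.38 (SE, limma adjusted p = 0.00871), a fall of 6.07-fold. That SE is from a fit of all 25 libraries, and with the 8 libraries alone the SE was 0.08 (limma adjusted p = 3.52e-08). Ddx58 (ENSMUSG00000040296, chromosome 4, 40203773 to 40239828) had 241, 222, 304 and 288 in SAMHD1 RIG-I DKO libraries, against 194, 202, 212 and 200.5 in RIG-I KO libraries, while WT libraries held 1286 to 1769.7. Both groups thus stood far below WT, as their labels say. The remaining Ddx58 signal was above all RIG-I KO libraries in all 4 SAMHD1 RIG-I DKO libraries, at 0.37 ± 0.12 on the log2 scale, and did not pass (limma adjusted p = 0.593). Ifih1, which encodes MDA5, the other cytosolic RNA sensor of this family, had 1954, 1968, 1779.9 and 2307 in SAMHD1 RIG-I DKO libraries, against 1411, 1415, 1713 and 1625 in RIG-I KO libraries. It too was higher in every SAMHD1 RIG-I DKO library without passing (0.38 ± 0.50, limma adjusted p = 1). The fit of 25 libraries takes its spread also from MDA5-deficient libraries, with Ifih1 at 0.87 to 14.9 normalized counts in MDA5 KO libraries. With the 8 libraries alone Ifih1 was at 0.38 ± 0.09 and did not pass either (limma adjusted p = 0.126).

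A gene was called when its Benjamini-Hochberg adjusted p was under 0.05 in limma's test on log2(normalized count + 1), fitted to all 25 libraries with genotype as the factor. Loss of SAMHD1 changed 9 genes by this rule, 0.0679% of those tested. Samhd1 fell, 0.00755% of those tested, and 8 genes rose, 0.0604%. Of the genes that rose, 5 were interferon-stimulated: Irf7, the antiviral genes Oasl1, Rsad2 and Ifi44, and Ifi206 of the Ifi200 family. Sorl1 and Pde7b were among the other 3. When the 8 libraries were fitted alone, 68 genes passed, 0.513% of those tested, and all 9 were among them. In that fit 59 genes were higher in SAMHD1 RIG-I DKO macrophages, 0.445% of those tested, and 9 were lower, 0.0679%. The fits give the same fold changes and differ in the spread they use. The median residual SD of a gene on the log2 scale was 0.134 within the 8 libraries and 0.217 within all 25. The count of 9 rests on single libraries. Without SAMHD1 RIG-I DKO library 1, 2, 3 or 4 it was 4, 2, 1 or 0, and without RIG-I KO library 1, 2, 3 or 4 it was 4, 2, 10 or 3. Leaving out 1 of the 8 libraries from the fit of these alone gave between 31 and 95 genes, with 31 when SAMHD1 RIG-I DKO library 4 was left out, 37 without RIG-I KO library 4 and 41 without RIG-I KO library 2.

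**Figure D1:**
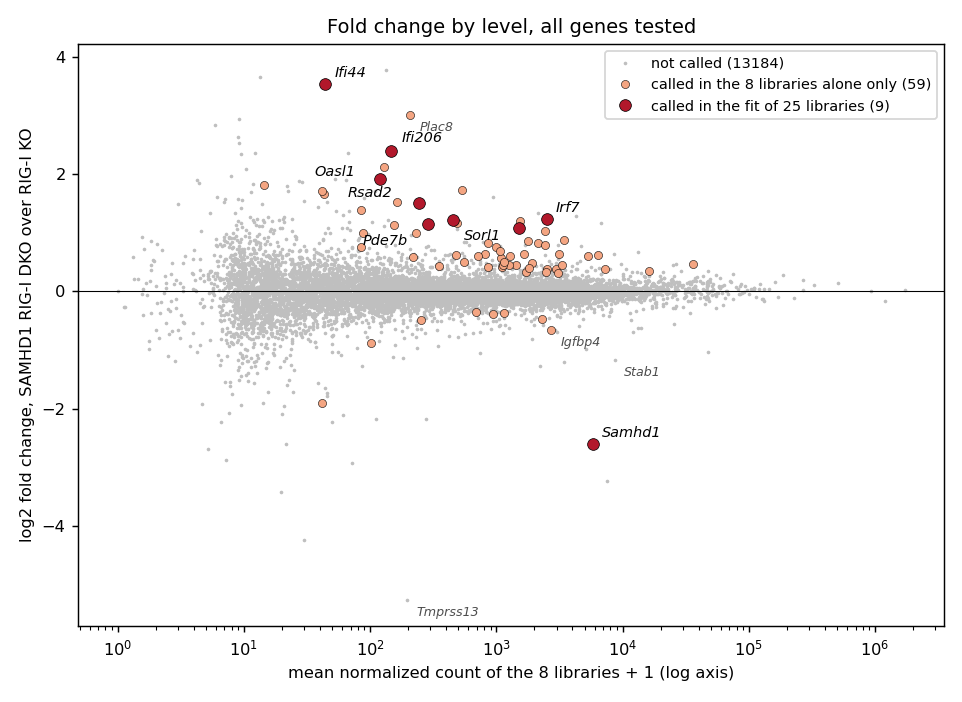
Log2 fold change of SAMHD1 RIG-I DKO over RIG-I KO macrophages against the mean normalized count of the 8 libraries plus 1, on a log axis, for the 13252 genes tested. Large dark points are the 9 genes called in the fit of 25 libraries and light points the 59 others called in the 8 libraries alone, and 59 of the 68 lie above 0.

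Irf7, the regulator that amplifies interferon production, had the smallest p among the genes that rose when the 8 libraries were fitted alone. It had 3815, 3218, 3389.8 and 3649.8 normalized counts in SAMHD1 RIG-I DKO libraries, against 1653, 1369, 1598 and 1374 in RIG-I KO libraries. The lowest SAMHD1 RIG-I DKO library stood well above the highest RIG-I KO library. The log2 fold change was 1.23 ± 0.22 (SE, limma adjusted p = 0.023), and 1.23 ± 0.08 with the 8 libraries alone (adjusted p = 3.89e-05). Oasl1, a member of the oligoadenylate synthetase-like family that is known to restrain Irf7 translation in mice, had 181, 192, 146 and 228 in SAMHD1 RIG-I DKO libraries, against 47.8, 43.0, 70.3 and 37.3 in RIG-I KO libraries. It rose by 1.91 ± 0.34 on the log2 scale (limma adjusted p = 0.023). Rsad2 encodes viperin, an antiviral enzyme that makes a chain-terminating nucleotide. It had 418, 340.1, 326 and 367 in SAMHD1 RIG-I DKO libraries, against 124, 137, 137 and 106 in RIG-I KO libraries, and rose by 1.52 ± 0.29 (limma adjusted p = 0.049), the weakest of the 9 calls, lost in 12 of 18 other runs of the fit. Ifi44, an interferon-induced gene, had 68.0, 51.6, 102 and 89.5 in SAMHD1 RIG-I DKO libraries, against 8.49, 1.00, 18.9 and 3.93 in RIG-I KO libraries. It was nearly silent in RIG-I KO libraries 2 and 4, and every SAMHD1 RIG-I DKO library held more than any RIG-I KO library. Its log2 fold change was the largest of the 9, 3.54 ± 0.55 (limma adjusted p = 0.00871), and its call in the 8 libraries alone was close to the threshold (adjusted p = 0.0441) and held in 2 of 8 fits that left out a library. Ifi206 belongs to the Ifi200 family, whose best-known members bind DNA. It had 243, 218, 227 and 288 in SAMHD1 RIG-I DKO libraries, against 52.0, 31.0, 70.3 and 37.3 in RIG-I KO libraries, a rise of 2.39 ± 0.44 (limma adjusted p = 0.0269). Reads of Ifi206 can be split among near-identical relatives by the counting, so its level is uncertain. Of the 18 other runs of the fit, 10 lost the call of Ifi206 and 7 each lost those of Irf7, Oasl1 and Pde7b. The call of Sorl1 was lost in 5 and that of Ifi44 in 2.

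**Figure D2:**
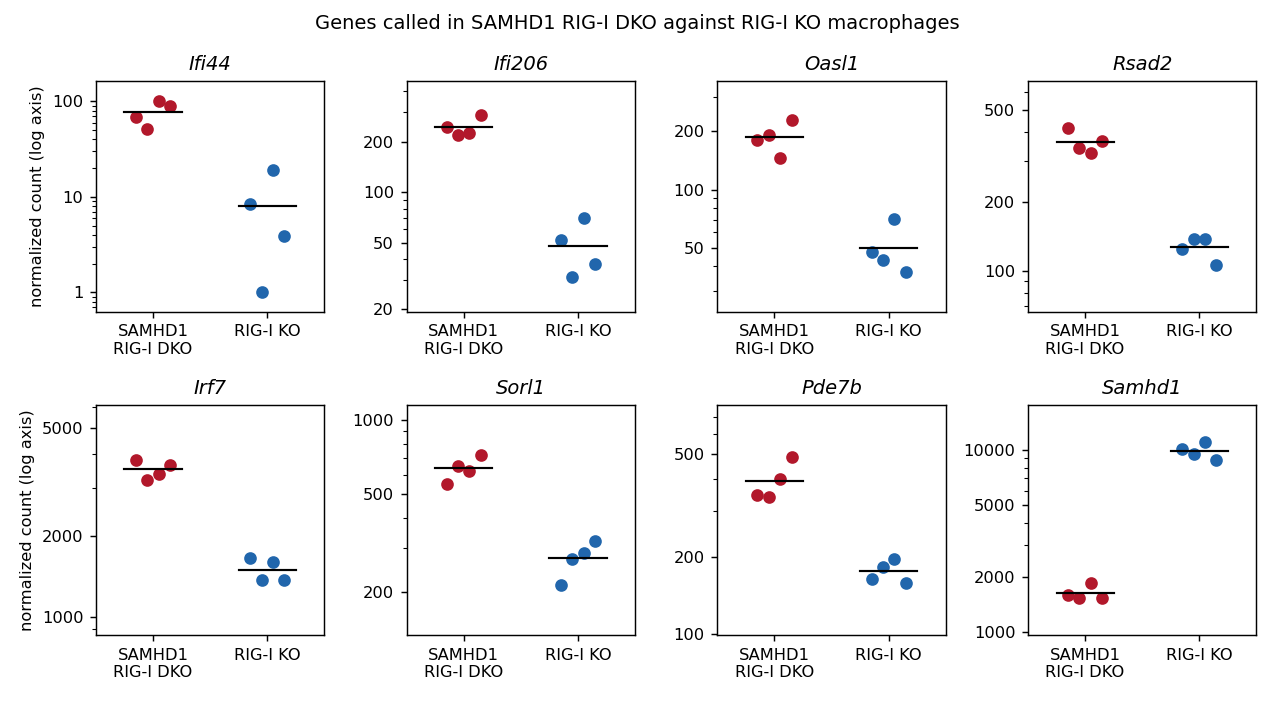
Normalized counts, on log axes, of 8 of the 9 called genes in each SAMHD1 RIG-I DKO library (left in each panel, red) and each RIG-I KO library (right, blue); bars are means of 4 libraries. The groups do not overlap in any panel, and Samhd1 is the panel in which SAMHD1 RIG-I DKO libraries are lower.

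Sorl1 and Pde7b rose too and were in none of the interferon lists. Sorl1, a sorting receptor that moves cargo between the Golgi and endosomes, had 549, 652, 620.0 and 722 normalized counts in SAMHD1 RIG-I DKO libraries, against 212, 272, 289 and 322 in RIG-I KO libraries, and rose by 1.22 ± 0.20 on the log2 scale (limma adjusted p = 0.012). The RIG-I KO group had the lowest mean of the 6 genotypes. Sorl1 averaged 636 ± 71.9 in SAMHD1 RIG-I DKO and 274 ± 46.1 in RIG-I KO macrophages (SD, n = 4 each), while SAMHD1 KO averaged 468 ± 57.1, WT 488 ± 88.9 (n = 5), SAMHD1 MDA5 DKO 512 ± 197 and MDA5 KO 537 ± 62.6. Pde7b, a phosphodiesterase that breaks down cyclic AMP, had 347, 341, 401 and 487 in SAMHD1 RIG-I DKO libraries, against 163, 183, 196 and 158 in RIG-I KO libraries (1.15 ± 0.21, limma adjusted p = 0.0254). Plac8, a gene of monocytes and 1 of 14 tested markers of small peritoneal macrophages and monocytes, had 345, 194, 475 and 462 in SAMHD1 RIG-I DKO libraries, against 76.4, 44.0, 32.5 and 28.5 in RIG-I KO libraries. It was 8.1-fold higher in the SAMHD1 RIG-I DKO group, at 3.02 ± 0.80 on the log2 scale, and did not pass in the fit of 25 libraries (limma adjusted p = 0.283) but did in the 8 alone (adjusted p = 0.00883). Of the 14 markers 2 were called higher with the 8 libraries alone, against 0.445% of all genes, and 1 with 25 libraries, against 0.0604%. The other 12 passed in neither fit, and 7 of the 14 were negative, among them Cd209a (-0.71) and F13a1 (-0.63). The summed level of the 14 was 22867 to 37436 normalized counts in SAMHD1 RIG-I DKO libraries and 19869 to 37123 in RIG-I KO libraries, which overlap. The part of such cells in the values of Plac8 was not tested.

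The 5 genes of smallest p that were higher without being called were Slfn1, Axl, Ifi209, Ifi205 and Usp18. Slfn1, a Schlafen family gene of growth control in lymphoid and myeloid cells, had 2290.1, 2406, 2184 and 2349.9 normalized counts in SAMHD1 RIG-I DKO libraries, against 1266, 1245, 1436 and 1143 in RIG-I KO libraries, at 0.86 ± 0.17 (limma adjusted p = 0.0524). Axl, a receptor tyrosine kinase for apoptotic cells that interferon is known to induce, had 3622, 3382, 2109 and 3050.4 in SAMHD1 RIG-I DKO libraries, against 2011, 1097, 983 and 905 in RIG-I KO libraries. SAMHD1 RIG-I DKO library 3 and RIG-I KO library 1 lay close together, and the gene passed in neither fit (limma adjusted p = 0.0735 with 25 libraries and 0.155 with 8). Usp18, which removes ISG15 from proteins and dampens the interferon receptor, had 666, 638, 548 and 824 in SAMHD1 RIG-I DKO libraries, against 284, 283, 385 and 245 in RIG-I KO libraries (1.16 ± 0.24, limma adjusted p = 0.0789). Ifi205 and Ifi209 of the Ifi200 family were at 1.73 ± 0.36 and 0.82 ± 0.17 (limma adjusted p = 0.0789 and 0.0735).

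Apart from Samhd1 no gene was called lower in the fit of 25 libraries. The 5 genes of smallest p on this side were Tns3, Irag1, Fah, Tmprss13 and Itgb4. Irag1, which encodes a partner of the inositol trisphosphate receptor, had 1004, 1174, 1934 and 966 normalized counts in SAMHD1 RIG-I DKO libraries, against 2044, 2014, 3767 and 4833 in RIG-I KO libraries, at -1.27 ± 0.30 (limma adjusted p = 0.166). Both groups split, with SAMHD1 RIG-I DKO library 3 and RIG-I KO libraries 3 and 4 high in their groups. Tns3, which encodes tensin 3 of focal adhesions, had 118, 127, 118 and 68.1 in SAMHD1 RIG-I DKO libraries, against 166, 157, 232 and 256 in RIG-I KO libraries (-0.91 ± 0.21, limma adjusted p = 0.166). Tmprss13, a membrane serine protease, had 13.1, 2.54, 5.10 and 0.973 in SAMHD1 RIG-I DKO libraries, against 438, 697, 9.44 and 402 in RIG-I KO libraries. It was nearly silent in RIG-I KO library 3 as well, and its difference of -5.26 ± 1.30 did not pass (limma adjusted p = 0.218). In the rest of the series Tmprss13 was at 7.44 to 702 in SAMHD1 KO and 14.3 to 552 in WT macrophages. Its highest value was 8.82 among SAMHD1 MDA5 DKO libraries and 10.9 among MDA5 KO libraries. Fah, an enzyme of tyrosine breakdown, averaged 6.51 in SAMHD1 RIG-I DKO and 15.3 in RIG-I KO macrophages, and Itgb4, a subunit of a laminin receptor, 18.8 in SAMHD1 RIG-I DKO and 55.7 in RIG-I KO macrophages.

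With the 8 libraries alone, the genes called higher had log2 fold changes from 0.32 to 3.54, with a median of 0.70. Of the 59, 37 belonged to 6 lists of interferon regulators, antiviral effectors, nucleic acid sensors, interferon-inducible GTPases and MHC class I genes, which together held 139 tested genes, and 22 did not. The share called higher in this fit was 0.445% of all genes tested. After Irf7, the genes of smallest p were Rsad2, Slfn1, Ifi205, Ifi206, Sorl1, Oasl1, Pde7b, Rtp4 and Oas1g. Rtp4, a chaperone of receptors that interferon induces, had 2956, 3228, 2723 and 3280.1 in SAMHD1 RIG-I DKO libraries, against 1729, 1618, 2048 and 1687 in RIG-I KO libraries (0.78 ± 0.08, limma adjusted p = 0.00165 with 8 libraries). Oas1g, an antiviral oligoadenylate synthetase, had 1347, 1211, 1078 and 1317 in SAMHD1 RIG-I DKO libraries, against 718, 795, 773 and 654 in RIG-I KO libraries (0.75 ± 0.08, limma adjusted p = 0.00237 with 8 libraries). The groups did not overlap for either gene. Named after their values were seen, others of the 59 were Isg15 (0.99), the ubiquitin-like modifier, Zbp1 (0.70), a sensor of left-handed nucleic acid, Ifit1 (1.13) and Ifit3 (1.52), which bind foreign RNA, and the membrane proteins Ms4a6b (1.39), Ms4a6c (0.88) and Ms4a6d (0.33), all log2 fold changes. The 22 outside the lists also held Prtn3, which encodes the granule protease proteinase 3, at 6500.4, 8404, 7881 and 8339 in SAMHD1 RIG-I DKO libraries, against 5725, 4705, 5044 and 4688 in RIG-I KO libraries (0.62 ± 0.09, limma adjusted p = 0.0134 with 8 libraries).

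The 9 genes called lower in the 8 libraries alone were Samhd1, 7 others with a symbol and 1 without. Igfbp4, which binds insulin-like growth factors, had 1849.8, 2374, 2072 and 2209 normalized counts in SAMHD1 RIG-I DKO libraries, against 3074, 3075, 3709.7 and 3478 in RIG-I KO libraries (-0.65 ± 0.09, limma adjusted p = 0.0062 with 8 libraries). Phlda3, a p53 target that holds back Akt, had 66.8, 71.9, 75.7 and 70.1 in SAMHD1 RIG-I DKO libraries, against 129, 109, 147 and 142 in RIG-I KO libraries (-0.87 ± 0.13, limma adjusted p = 0.0134 with 8 libraries). The groups did not overlap for either gene. The others with a symbol were the ETS factor Etv5 (-0.39), the inhibitor of Ras signalling Spred2 (-0.37), Atxn1 (-0.35), the laminin chain Lama3 (-0.48) and Pitpnm2 (-0.49). None of these passed in the fit of 25 libraries.

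**Figure D3:**
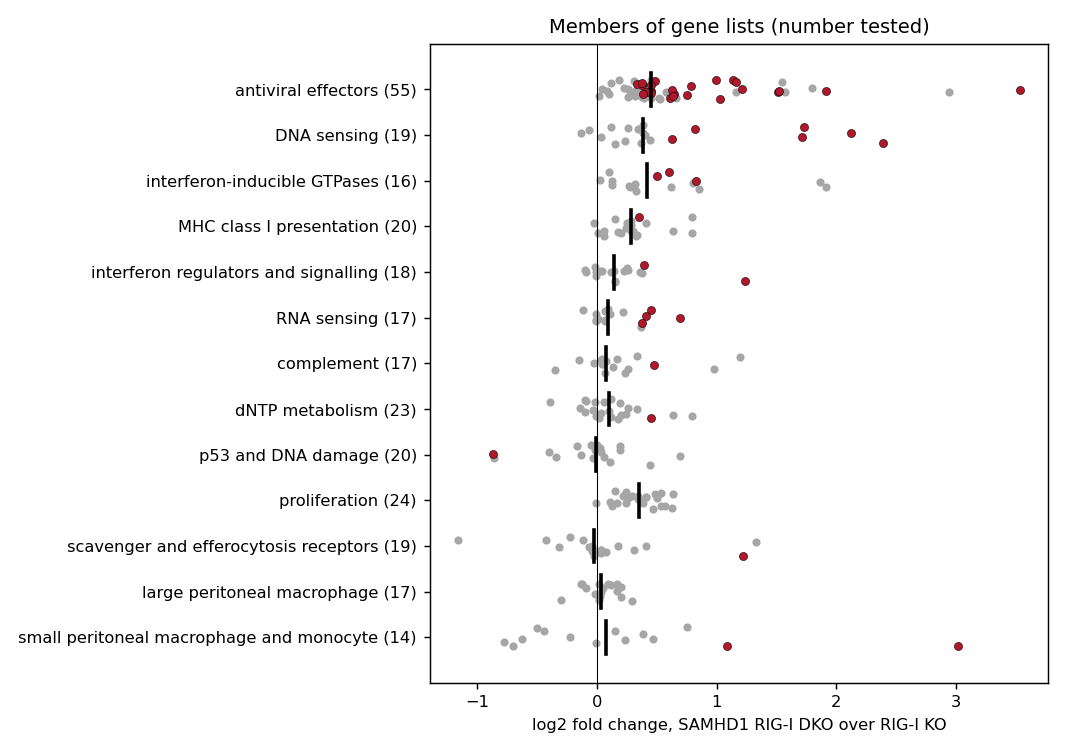
Log2 fold changes of SAMHD1 RIG-I DKO over RIG-I KO for the tested members of 13 gene lists, with the number of members in brackets; red points were called in the fit of the 8 libraries alone and the black bar is the list's median. All 55 antiviral effectors lie above 0, while the markers of large peritoneal macrophages lie on both sides of it.

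Of the lists read, antiviral effectors had the most calls. Of 56 genes listed 55 were tested, and these were all positive, against 50.6% of all genes tested, and the median log2 fold change was 0.45, against 0.00 over all genes. In the fit of 25 libraries 3 of the 55 passed, Ifi44, Oasl1 and Rsad2, against 0.0604% of all genes, and in the 8 libraries alone 24 passed, against 0.445%. All 4 SAMHD1 RIG-I DKO libraries were above all 4 RIG-I KO libraries for 44 of the 55, against 2.63% of all genes. The mean log2 level of the list was 10.18, 10.13, 10.06 and 10.27 in SAMHD1 RIG-I DKO libraries 1 to 4, against 9.43, 9.39, 9.66 and 9.32 in RIG-I KO libraries 1 to 4. RIG-I KO library 3 was the highest of its group and still below every SAMHD1 RIG-I DKO library.

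Upstream of these effectors lie the regulators and the signalling chain. Of 18 interferon regulators and signalling genes 13 were positive, against 50.6% of all genes tested, with a median of 0.15. Irf7 passed in both fits and Stat2, a subunit of the interferon-activated complex, passed in the 8 libraries alone (0.39 ± 0.07, limma adjusted p = 0.0304). These calls were 1 of 18 with 25 libraries, against 0.0604% of all genes, and 2 of 18 with the 8 alone, against 0.445%. Irf9, another subunit of the complex, was at 0.23 ± 0.09 (limma adjusted p = 1). The receptor chains Ifnar1 (-0.10) and Ifnar2 (-0.02), the kinases Jak1 (0.03) and Tyk2 (-0.00) and Irf3 (-0.00), named after their values were seen, had log2 differences near 0. None of the 10 interferon genes listed had a measured value here.

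RNA sensing genes include members that interferon induces and members that it does not. Of 17 tested, 13 were positive, 0 passed with 25 libraries (limma, smallest adjusted p = 0.136, for Adar) and 4 passed with the 8 alone, against 0.445% of all genes: Adar, Eif2ak2, Dhx58 and Zbp1. Adar, which edits double-stranded RNA and so hides it from MDA5, had 3363, 3224, 3138 and 3625 normalized counts in SAMHD1 RIG-I DKO libraries, against 2606, 2496, 2699 and 2449.9 in RIG-I KO libraries (0.38 ± 0.06, limma adjusted p = 0.0162 with 8 libraries). Eif2ak2, the kinase PKR that halts translation on double-stranded RNA, was at 0.45 ± 0.07 (limma adjusted p = 0.0162 with 8 libraries), and Dhx58, which encodes LGP2, the relative of RIG-I and MDA5 without a signalling domain, at 0.41 ± 0.06 (adjusted p = 0.0162). Mavs, the adaptor of both sensors, had 938, 840.0, 929.5 and 949 in SAMHD1 RIG-I DKO libraries, against 997, 973, 972 and 1017 in RIG-I KO libraries. It was lower in every SAMHD1 RIG-I DKO library, with a log2 fold change of -0.12, and was not called.

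Among DNA sensing genes 17 of 19 were positive, with a median of 0.39, 1 passed with 25 libraries, against 0.0604% of all genes, and 6 with the 8 alone, against 0.445%, and these 6 were all of the Ifi200 family: Ifi205, Ifi206, Ifi208, Ifi209, Ifi211 and Ifi213. Ifi213 had 189.7, 202, 191 and 246 normalized counts in SAMHD1 RIG-I DKO libraries, against 59.4, 37.0, 69.3 and 30.5 in RIG-I KO libraries, at 2.13 ± 0.48 (limma adjusted p = 0.157 with 25 libraries and 0.00283 with 8). Ifi208 averaged 63.0 in SAMHD1 RIG-I DKO and 18.4 in RIG-I KO macrophages, and Ifi211 averaged 2019 in SAMHD1 RIG-I DKO and 1305 in RIG-I KO macrophages. The 6 were picked by their calls in these libraries, so their shared direction follows from that choice. Of all 19, 10 had every SAMHD1 RIG-I DKO library above every RIG-I KO library, against 2.63% of all genes. The sensor Cgas (0.15), its adaptor Sting1 (0.24) and the kinase Tbk1 (0.03), named after their values were seen, were not called in either fit.

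Interferon-inducible GTPases, which attack the vacuoles of intracellular pathogens, were positive in 16 of 16, with a median of 0.41. None passed with 25 libraries (limma, smallest adjusted p = 0.979, for Gbp6) and 3 passed with the 8 alone, against 0.445% of all genes: Gbp6, Gbp9 and Ifi47. Gbp6 had 1209, 934, 932 and 1295 normalized counts in SAMHD1 RIG-I DKO libraries, against 731, 561, 660.1 and 501 in RIG-I KO libraries (0.83 ± 0.14, limma adjusted p = 0.0418 with 8 libraries). Gbp4 and Gbp8 had larger differences, 1.87 ± 0.89 and 1.91 ± 0.82, at low levels that overlapped between groups for Gbp4 and Gbp8 alike. MHC class I genes were positive in 19 of 20, with a median of 0.28, and 10 of 20 had all SAMHD1 RIG-I DKO libraries above all RIG-I KO libraries, against 2.63% of all genes. H2-T23, which encodes the nonclassical molecule Qa-1, was the 1 that passed, with the 8 libraries alone (0.35 ± 0.06, limma adjusted p = 0.0169), against 0.445% of all genes. H2-T23 had 19142, 17648, 17523 and 17778 in SAMHD1 RIG-I DKO libraries, against 14202, 13817, 14568 and 13802 in RIG-I KO libraries. H2-Q6, a gene of the polymorphic Q region whose reads can be shared with its neighbours, was at 0.79 ± 0.31 (limma adjusted p = 1). Of 10 MHC class II genes 7 were positive and 0 were called in either fit by limma.

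SAMHD1 acts on deoxynucleotides, so the enzymes that make and salvage them were read as a list. Of 23 tested, 15 were positive with a median of 0.10, 0 passed with 25 libraries and 1 passed with the 8 alone, against 0.445% of all genes. This was Dck, the kinase that salvages deoxycytidine and other deoxynucleosides, with 1599, 1362, 1292 and 1575 normalized counts in SAMHD1 RIG-I DKO libraries, against 1153, 953, 1092 and 1064 in RIG-I KO libraries (0.45 ± 0.08, limma adjusted p = 0.0422 with 8 libraries). Every SAMHD1 RIG-I DKO library was above every RIG-I KO library. Rrm2b, the p53-induced small subunit of ribonucleotide reductase, was at 0.19 ± 0.09 (limma adjusted p = 1) and the mitochondrial thymidine kinase Tk2 at 0.10 ± 0.08 (limma adjusted p = 1). Of 20 p53 and DNA damage genes 8 were positive, with a median of -0.01. Phlda3 was the only one that passed, lower and with the 8 libraries alone, against 0.0679% of all genes called lower. Gdf15, a stress-induced cytokine, was at -0.86 ± 0.37 and Gadd45a, a damage-induced growth arrest gene, at 0.44 ± 0.22 (limma adjusted p = 1 and 1). Of 24 proliferation genes 23 were positive with a median of 0.35 and 0 passed in either fit. Their mean log2 level was 8.16, 8.04, 7.85 and 8.37 in SAMHD1 RIG-I DKO libraries, against 8.60, 7.43, 7.48 and 7.50 in RIG-I KO libraries, so RIG-I KO library 1 was the highest of all 8 and the groups overlapped.

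Complement factors and clearance receptors are main products of peritoneal macrophages. Of 17 complement genes 14 were positive, with a median of 0.07, 0 passed with 25 libraries and 1 with the 8 alone, against 0.445% of all genes. Cfb, factor B of the alternative pathway, had 44210.4, 39442, 40339 and 42548 normalized counts in SAMHD1 RIG-I DKO libraries, against 33188, 32164, 29036 and 25745 in RIG-I KO libraries (0.48 ± 0.08, limma adjusted p = 0.0348 with 8 libraries). C2, its classical-pathway counterpart, had 147, 73.6, 156 and 198 in SAMHD1 RIG-I DKO libraries, against 72.2, 57.0, 51.4 and 56.0 in RIG-I KO libraries, without passing (limma adjusted p = 1). Of 19 scavenger and efferocytosis receptors 9 were positive, with a median of -0.03. Sorl1 was the 1 called, against 0.0604% of all genes called higher with 25 libraries and 0.445% with the 8 alone. All SAMHD1 RIG-I DKO libraries were above all RIG-I KO libraries for 3 of the 19, Sorl1, Axl and Scarb2, against 2.63% of all genes, and below them for 2, Stab1 and Colec12, against 2.3%. Stab1, a scavenger receptor for modified lipoproteins, had 3873, 8397, 4209.6 and 5223 in SAMHD1 RIG-I DKO libraries, against 10021, 10127, 10103 and 17575 in RIG-I KO libraries. RIG-I KO library 4 stood above the rest of its group, and the difference of -1.16 ± 0.31 did not pass (limma adjusted p = 0.294). The scavenger receptor Colec12 was at -0.43 ± 0.15 (limma adjusted p = 0.894).

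Markers of other cell types were read by library. For B cells Ighd was at most 1.70 normalized counts in SAMHD1 RIG-I DKO and 1.05 in RIG-I KO libraries, at or near 0. Cd79b, a chain of the B cell receptor, was present at a low level, with 26.3, 49.1, 24.7 and 33.1 in SAMHD1 RIG-I DKO libraries, against 31.8, 23.02, 15.7 and 17.7 in RIG-I KO libraries, which overlap. The summed level of the 11 tested B cell genes was 1850 to 2031 in SAMHD1 RIG-I DKO libraries and 2106 to 2281 in RIG-I KO libraries, lower in every SAMHD1 RIG-I DKO library. Nearly all of this sum was Bank1, a gene not confined to B cells that averaged 1894 in SAMHD1 RIG-I DKO and 2108 in RIG-I KO macrophages. For mast cells Cpa3, Tpsb2 and Kit were at 0 in 2, 3 and 2 of the SAMHD1 RIG-I DKO libraries and in 3, 2 and 3 of the RIG-I KO libraries, and none exceeded 4.91 normalized counts. The summed level of the 6 mast cell genes was 1392 to 1769 in SAMHD1 RIG-I DKO libraries and 1185 to 2334 in RIG-I KO libraries, nearly all of it Hdc, the enzyme that makes histamine, which averaged 1600.5 in SAMHD1 RIG-I DKO and 1637 in RIG-I KO macrophages. No marker was called in either fit among 11 B cell, 6 mast cell, 6 T and NK cell, 6 neutrophil and eosinophil, 7 dendritic cell and 4 erythroid genes. Mean log2 levels by library did not overlap between groups for antiviral effectors, DNA sensing and MHC class I genes, and overlapped for large peritoneal macrophage, B cell and mast cell markers. Other lists without overlap included interferon regulators, RNA sensing genes and GTPases. Complement genes did not overlap either, at 12.41 to 12.51 in SAMHD1 RIG-I DKO and 12.20 to 12.32 in RIG-I KO libraries.

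**Figure D4:**
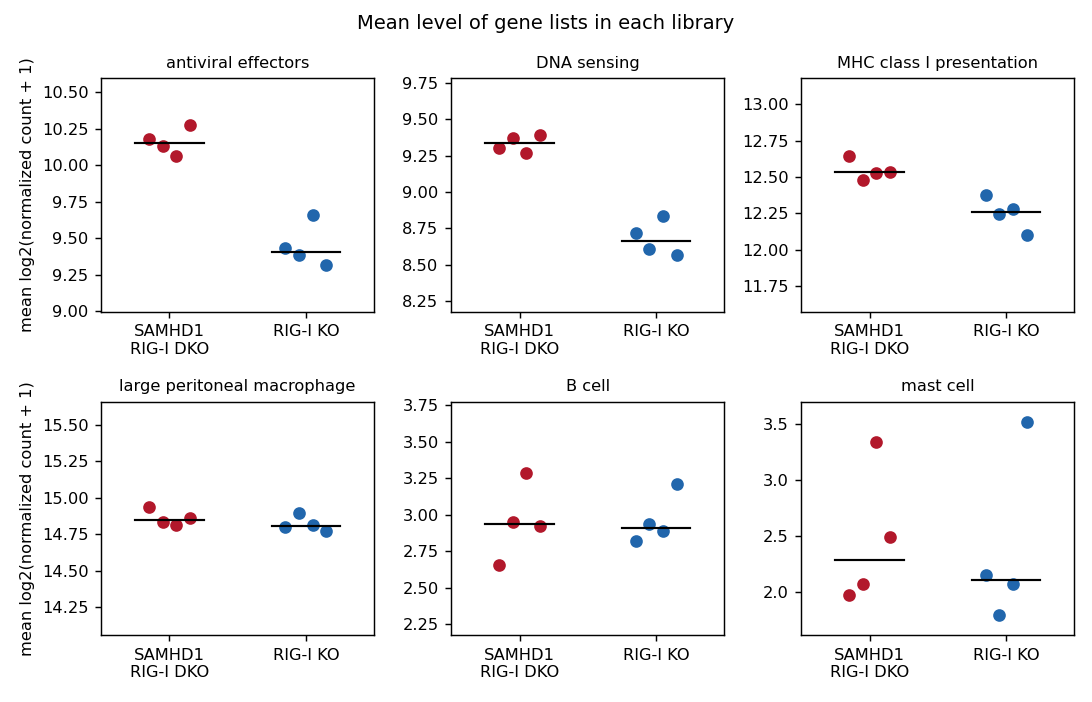
Mean log2(normalized count + 1) of the members of 6 gene lists in each SAMHD1 RIG-I DKO library (left, red) and RIG-I KO library (right, blue), with the median of 4 libraries as a bar. Antiviral effectors were at 10.06 to 10.27 in SAMHD1 RIG-I DKO and 9.32 to 9.66 in RIG-I KO libraries, whereas the mean log2 levels of large peritoneal macrophage, B cell and mast cell markers overlapped.

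The promoters of the genes called higher were read for the interferon-stimulated response element, the site of the complex that holds STAT2 and IRF9, searched as GAAA, any 2 bases and GAAA again, on both strands in the 250 bases before the annotated start (RefSeq, GRCm38.p6). Of the 59 genes called higher in the 8 libraries alone, 58 had a symbol and 45 of these had a promoter in the table. A match was found in 18 of the 45, which is 40%, against 3.4% of 9640 tested genes with a promoter and 3.46% of all 27025 genes in the table. It was found in 0 of 6 genes called lower, too few to tell 0 from the share of 3.4%. The element of STAT dimers, searched as TTCNNNGAA, was found in 3 of the 45, which is 6.67%, against 7.25% of tested genes. Matches of the first element lay 2 to 212 bases before the start, with a median of 64, and could overlap each other. Of the genes called with 25 libraries, Rsad2 and Ifi206 held a match, and Irf7, Oasl1, Ifi44, Sorl1 and Pde7b held none in this window. A match is a description of these letters and not of binding. The stretches of 70 bases below, 5′ to 3′ along the gene's strand with matches in capitals, are those of the 8 matched genes with the smallest p in the 8 libraries alone, followed by Isg15, in which 3 matches overlap.
Rsad2 (chr12:26456533-26456602, minus strand): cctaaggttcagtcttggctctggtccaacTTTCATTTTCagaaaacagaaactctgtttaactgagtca
Ifi205 (chr1:174031850-174031919, minus strand): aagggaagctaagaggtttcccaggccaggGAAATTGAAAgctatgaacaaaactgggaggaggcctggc
Ifi206 (chr1:173491319-173491388, minus strand): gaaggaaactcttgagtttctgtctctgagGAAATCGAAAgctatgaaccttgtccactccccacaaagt
Oas1g (chr5:120887614-120887683, minus strand): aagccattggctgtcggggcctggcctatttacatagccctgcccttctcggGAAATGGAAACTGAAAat
Ifi213 (chr1:173599306-173599375, minus strand): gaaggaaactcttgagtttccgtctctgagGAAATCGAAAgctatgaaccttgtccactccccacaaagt
Ifit3 (chr19:34583377-34583446, plus strand): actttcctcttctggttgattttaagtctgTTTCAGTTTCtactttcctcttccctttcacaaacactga
Oas1a (chr5:120907526-120907595, minus strand): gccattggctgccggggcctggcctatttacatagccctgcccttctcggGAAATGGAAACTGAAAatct
Ifi208 (chr1:173673577-173673646, plus strand): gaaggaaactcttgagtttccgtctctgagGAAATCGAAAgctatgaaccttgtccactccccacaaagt
Isg15 (chr4:156200845-156200914, minus strand): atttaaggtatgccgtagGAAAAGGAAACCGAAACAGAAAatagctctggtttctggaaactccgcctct

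The stretches of Ifi206, Ifi208 and Ifi213 share the match and nearly everything around it. Ifi208 and Ifi213 differed at 0 of 70 bases and each differed from Ifi206 at 1 of 70, while Ifi205 differed from Ifi206 at 36 of 70. In SAMHD1 RIG-I DKO macrophages the means were 244 normalized counts for Ifi206, 207 for Ifi213 and 63.0 for Ifi208, and in RIG-I KO macrophages they were 47.7, 49.0 and 18.4; reads can be split between such close copies. Oas1g and Oas1a hold the same overlapping pair of matches within a few bases of the start. Oas1a averaged 3794 in SAMHD1 RIG-I DKO and 2418 in RIG-I KO macrophages (0.65 ± 0.08, limma adjusted p = 0.00298 with 8 libraries), and Isg15 averaged 308 in SAMHD1 RIG-I DKO and 153 in RIG-I KO macrophages.

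The same loss of SAMHD1 was set beside its size with both sensors present (SAMHD1 KO against WT) and without MDA5 (SAMHD1 MDA5 DKO against MDA5 KO), comparisons that share no library with this one. In those backgrounds 1 library in each group labelled as lacking SAMHD1 was intermediate for Samhd1, SAMHD1 KO library 2 with 4767 normalized counts (others 1113 to 1566) and SAMHD1 MDA5 DKO library 3 with 4952 (others 1069 to 1397), and WT libraries held 6485.5 to 12817 and MDA5 KO libraries 9291.5 to 13120. Of the 59 genes called higher in the 8 libraries alone, 55 were positive in the WT background and 56 in the MDA5 KO background, with median log2 fold changes of 0.56 in each, against 0.70 here, where they were chosen. Irf7 was at 1.23 ± 0.22 in the RIG-I KO, 1.30 ± 0.21 in the WT and 0.88 ± 0.22 in the MDA5 KO background, and Ifi206 was at 2.39 ± 0.44 in the RIG-I KO, 2.18 ± 0.42 in the WT and 2.06 ± 0.44 in the MDA5 KO background. Antiviral effectors had medians of 0.45 in the RIG-I KO, 0.46 in the WT and 0.34 in the MDA5 KO background. MHC class I genes had 0.28 in the RIG-I KO, -0.02 in the WT and 0.28 in the MDA5 KO background, and proliferation genes had 0.35 in the RIG-I KO, -0.58 in the WT and 0.16 in the MDA5 KO background. The differences of these medians were not tested. Without both libraries of intermediate Samhd1, 57 of the 59 genes were positive in each of these backgrounds, with medians of 0.57 in the WT and 0.65 in the MDA5 KO background, and antiviral effectors had 0.42 in the WT and 0.38 in the MDA5 KO background. The median of MHC class I genes in the WT background changed sign, to 0.13, and that of proliferation genes in the MDA5 KO background fell to 0.02. Both values thus rest on single libraries. In the WT background proliferation genes stayed negative, with a median of -0.39 and 1 of 24 positive.

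Whether the effect of SAMHD1 loss differed between backgrounds was tested gene by gene as an interaction. Limma called 0 of 13252 genes, 0% of those tested, against the WT background (smallest adjusted p = 1, 375 genes at an unadjusted p under 0.05), and voom called 0. Against the MDA5 KO background limma again called 0 genes, 0% of those tested (smallest adjusted p = 0.837, 137 genes at an unadjusted p under 0.05), and voom called 0. Without the libraries of intermediate Samhd1 limma also called 0 in each. Chance alone gives a share of 0.05 of the genes tested at an unadjusted p under 0.05. The counts of 375 and 137 both lie below that share. Sorl1 had the smallest p against the MDA5 KO background. It was at 1.22 ± 0.20 in the RIG-I KO, -0.05 ± 0.19 in the WT and -0.14 ± 0.20 in the MDA5 KO background, differences of 1.27 ± 0.27 from the WT and 1.37 ± 0.28 from the MDA5 KO background that did not pass (limma adjusted p = 1 and 0.837). Pde7b was positive in all 3, at 1.15 ± 0.21 in the RIG-I KO, 0.62 ± 0.20 in the WT and 0.49 ± 0.21 in the MDA5 KO background. The rise of Pde7b differed by 0.53 ± 0.29 from the WT and by 0.66 ± 0.30 from the MDA5 KO background (limma adjusted p = 1 in each). A p that misses the threshold does not show that the effects were alike.

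**Figure D5:**
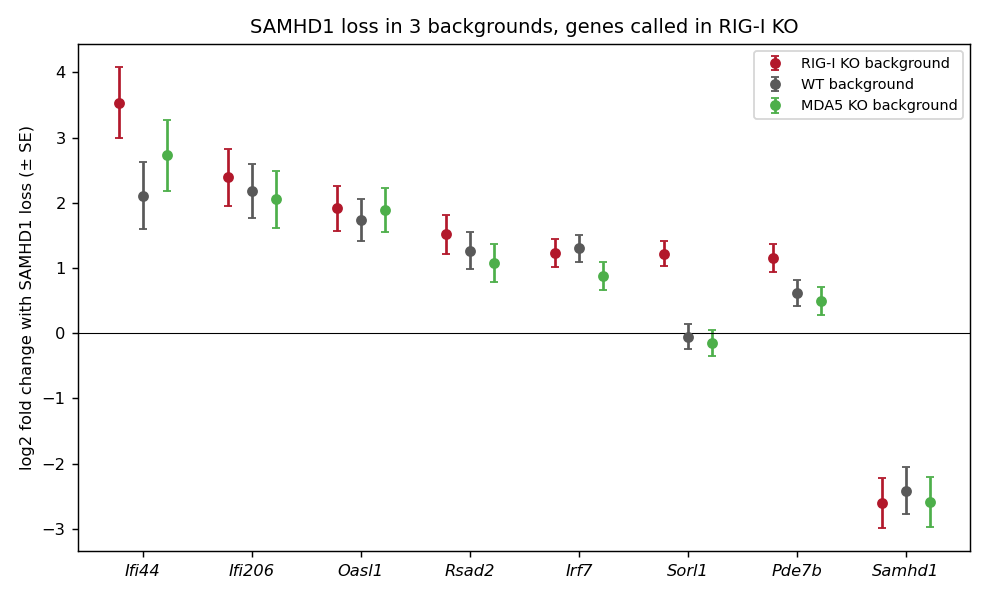
Log2 fold change with SAMHD1 loss, with its standard error, for 8 of the 9 genes called in the RIG-I KO background, in the RIG-I KO (red), WT (grey) and MDA5 KO (green) backgrounds. Ifi44, Ifi206, Oasl1, Rsad2, Irf7 and Pde7b are positive in all 3 backgrounds. Sorl1 is at 1.22 in the RIG-I KO background and near 0 in the others, a difference that did not pass.

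Knockout alleles can carry flanking sequence of the line in which they were made, so the genes near Samhd1 on chromosome 2 were read. Within 5 Mb of it 103 genes were tested, with a median log2 fold change of 0.00. None was called besides Samhd1 with 25 libraries. An unadjusted p under 0.05 was found for 2 of the 103, against 470 of 13252 genes tested. Tgm2 was among the 2. It was the 1 called with the 8 libraries alone, against 0.445% of all genes called higher. Tgm2, which encodes the cross-linking enzyme transglutaminase 2 (chromosome 2, 158116402 to 158146436), had 833, 808, 898 and 900.0 normalized counts in SAMHD1 RIG-I DKO libraries, against 626, 541, 593 and 509 in RIG-I KO libraries (0.60 ± 0.28, limma adjusted p = 1 with 25 libraries and 0.00424 with 8). All 4 SAMHD1 RIG-I DKO libraries were above all 4 RIG-I KO libraries, as for 2.63% of all genes. Tgm2 was at -0.53 ± 0.26 with SAMHD1 loss in the WT and 0.38 ± 0.28 in the MDA5 KO background.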

How the data were processed

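Per the file headers and the values, the authors deposited log2 values per library made with a variance-stabilizing transformation, and the mean signal of each genotype as normalized counts. STAR, Salmon, R 4.1.2 and DESeq2 stand in the submitters' processing notes with the builds GRCm38 and mm10. The labels' protocols give another aligner and counter; which of these was used, and whether strand was counted, is unknown. Normalized counts were computed back from the deposited log2 values, whose floor of 5.81 is a count of 0, and gave whole reads throughout (tolerance 0.01). No 2 replicates were duplicates. Deposited fold changes and p-values were not used. As planned for normalized values, limma 3.58.1 (statmod 1.5.0, R 4.3.3; trended, robust) was run on log2(normalized count + 1) with two-sided tests, for genes with at least 10 in at least 4 libraries (14 left out). The 1 added shrinks fold changes of low genes. The step was tested on simulated data. Genes and lists were chosen with earlier results of these data known. Named are the targeted and called genes, the 10 a direction of smallest p with 8 libraries, the 5 a direction nearest the threshold, 4 of smallest p per described list and genes within 5 Mb of Samhd1 at an unadjusted p under 0.05; any other was chosen after its values were seen. Some genes the rule names are not reported here. Further lists were chemokines (11 tested), inflammatory (18), immediate early (18), sterol (21) and Aicardi-Goutieres genes (8); among these, Samhd1 and Adar were the genes called in either fit. No listed interferon or mesothelial gene had a value. GENCODE M21 gave positions for 13259 identifiers.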

Additional observations from a re-analysis of the deposited data

Results flagged for a closer look

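Of 214 groups of 4 libraries examined for the named genes, 15 held a library whose gap to the others was larger than Dixon's 95% critical value, and chance alone gives about 1 in 20 groups. Among SAMHD1 RIG-I DKO libraries, Tns3 had 68.1 normalized counts in library 4 (others 118 to 127), Gadd45a 1295 in library 4 (others 975 to 1012), H2-T23 19142 in library 1 (others 17523 to 17778) and C3 20569.8 in library 3 (others 24145 to 24462). Among RIG-I KO libraries, Tmprss13 had 9.44 in library 3 (others 402 to 697), Stab1 17575 in library 4 (others 10021 to 10127), Sp100 3190.3 in library 3 (others 2653 to 2723) and Phf11b 794 in library 4 (others 1005 to 1019.9). At low levels, Fah had 14.0 in RIG-I KO library 2 (others 15.7 to 15.9) and Gm6545 15.01 in RIG-I KO library 2 (others 20.6 to 21.2). The remaining flags concern markers of other cells at the level of single reads: Ighd at 1.70 in SAMHD1 RIG-I DKO library 3 and at 0 in RIG-I KO library 1, Tpsb2 at 3.40 in SAMHD1 RIG-I DKO library 3, and Cpa3 at 1.97 and Kit at 0.983 in RIG-I KO library 4. No gene called in the fit of 25 libraries was flagged.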

How the results depend on the processing

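The count of 9 called genes was 9 with a pseudocount of 0.5 or 5, without the filter on low values and without robust moderation, 10 on the variance-stabilized values, 8 with trimmed mean scaling, 7 with voom on whole reads, 7 without WT library 3 and SAMHD1 KO library 2, and 7 without the libraries of intermediate Samhd1 (SAMHD1 KO library 2 and SAMHD1 MDA5 DKO library 3), an alternative chosen after seeing the data. It was 68 with the 8 libraries alone, whose smaller spread is given above. Leaving out 1 of the 8 libraries gave 0 to 10 genes in the fit of 25. In the fit of the 8 alone, also chosen after seeing the data, it gave 46, 68, 95 and 31 without SAMHD1 RIG-I DKO library 1, 2, 3 and 4, and 88, 41, 79 and 37 without RIG-I KO library 1, 2, 3 and 4. Both interactions stayed at 0 genes in every run that held them. They could not be fitted in the 8 libraries alone, which lack the other backgrounds. The median of antiviral effectors was 0.45 and ranged from 0.42 to 0.49 when a library was left out, and it was 0.40 on the variance-stabilized values. The median of all genes was within 0.01 of 0 under each scaling. Of the runs for single named genes, none changed direction for a called gene, 66 lost a call and 366 gained one. These runs include the fits of the 8 libraries alone, and the genes include all those called there. Gains in those fits follow from that choice of genes. No paired analysis was possible because the columns carry no replicate numbers that match the labels. Depth limits the values of genes under about 10 normalized counts, where 1 read moves the fold change.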
